A study of Mus musculus with 20 samples.

Results

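The genes described here are 42 proliferation and mitosis genes, followed in lung RNA of female mice exposed to carbon black while pregnant. They were taken by name from the 27962 gene names on the array, and 41 were found under that name. The remaining one, Cdc45, was found under its older name Cdc45l. The list falls into 9 S phase genes (Mcm2 to Mcm7, Pcna, Rrm2 and Tyms), 8 other G1 and S phase genes (Rrm1, Tk1, Cdc6, Cdc45, Ccne1, Ccne2, E2f1 and Uhrf1) and 25 mitotic genes, from Mki67 and Top2a to the cyclins, kinases, kinesins and checkpoint proteins of cell division. Female C57BL/6BomTac mice, mated on a known day, received carbon black Printex 90 nanoparticles in water by instillation into the trachea on gestation days 7, 10, 15 and 18. Each of the 4 instillations held 0, 2.75, 13.5 or 67 µg per animal, which gave totals of 0 µg for the control group, 11 µg for the low dose, 54 µg for the medium dose and 268 µg for the high dose. The control dams received the Milli Q water vehicle alone, so all groups shared the pregnancy, the instillations and the nursing of a litter. Lungs were taken 26 to 27 days after exposure, once the litters had been weaned, from 5 dams per group, and each dam had its own two-colour array. Every array carried lung RNA labelled with Cy5 and a shared purchased mouse reference labelled with Cy3, and the value of a gene is the log2 ratio of lung over reference.

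A cell that divides first copies its DNA in S phase and then separates the copies in mitosis, and different genes serve the steps. Licensing factors and the MCM helicase open the origins, the clamp Pcna holds the polymerase on DNA, and Rrm2, Tyms and Tk1 supply nucleotides, largely under the control of E2F factors. Later in the cycle, cyclin B with Cdc2a (now called Cdk1), the Aurora and Polo kinases, the spindle checkpoint and the kinesins are switched on by factors that include Foxm1, B-Myb and the MuvB complex, which binds the CHR element. In adult lung few cells are in cycle at any time, so transcripts of these genes report a small fraction of cells. In whole lung RNA, fewer dividing cells and less RNA per dividing cell cannot be told apart.

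Promoter windows, from 250 bases before to 50 bases after the annotated start, were matched for 35 of the 42 genes in the RefSeq table of GRCm38.p6. They were searched on both strands for E2F motifs (TTTCGCGC, TTTGGCGC, TTTCCCGC and TTTGCCGC), CHR motifs (TTTGAA and TTCGAA) and CCAAT, the box bound by NF-Y. An E2F motif was found in 4 of 8 S phase promoters (50%), in 2 of 7 of the other G1 and S promoters (28.6%) and in 1 of 20 mitotic promoters (5%), against 2.6% of the promoters of 27025 genes. A CHR motif was found in 15 of 20 mitotic promoters (75%), in 2 of 8 S phase promoters (25%) and in 21.7% of all promoters. CCAAT was present in 17 of 20 mitotic promoters (85%) and in 7 of 8 S phase promoters (87.5%), against 41.1% of all. All 15 mitotic promoters with a CHR motif also held CCAAT, a pairing found in 8.61% of all promoters. E2F letters were thus more frequent in the windows of the S phase genes and CHR letters in those of the mitotic genes. This is a description of the sequences without a test. Some of the motifs lay only after the start, among them the CHR motifs of Bub1 (base 15) and Plk1 (base 31) and the E2F motifs of Mcm3 (bases 20 and 39). The 150 bases before the start of 8 of these genes are given below as examples, so motifs after the start are not shown. They read 5′ to 3′ along the strand of the gene, with the searched motifs in capitals. A motif on the opposite strand appears as its reverse complement (so that CCAAT reads ATTGG and the CHR motif with a central TG reads TTCAAA), and motifs that overlap run together in capitals, as the first pair of E2F motifs in Mcm6 does. The first 2 genes, Mcm6 and Cdc6, hold E2F motifs and no CHR motif. Cdc2a holds both kinds, Cdc20, Top2a and Ube2c hold CHR motifs and CCAAT, and Pcna and Ccnb1 hold CCAAT alone.
Mcm6 (chr1:128359706-128359855, minus strand, GRCm38.p6): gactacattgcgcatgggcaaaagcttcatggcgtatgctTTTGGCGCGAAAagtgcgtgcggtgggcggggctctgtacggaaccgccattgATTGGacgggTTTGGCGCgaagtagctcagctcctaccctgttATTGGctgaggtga
Cdc6 (chr11:98908001-98908150, plus strand, GRCm38.p6): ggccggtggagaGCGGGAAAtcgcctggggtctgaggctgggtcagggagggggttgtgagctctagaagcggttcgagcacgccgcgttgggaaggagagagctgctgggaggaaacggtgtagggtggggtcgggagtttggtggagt
Cdc2a (chr10:69352913-69353062, minus strand, GRCm38.p6): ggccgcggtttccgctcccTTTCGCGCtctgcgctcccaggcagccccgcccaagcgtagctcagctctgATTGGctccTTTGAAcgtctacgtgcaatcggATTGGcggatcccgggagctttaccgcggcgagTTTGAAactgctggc
Cdc20 (chr4:118437344-118437493, minus strand, GRCm38.p6): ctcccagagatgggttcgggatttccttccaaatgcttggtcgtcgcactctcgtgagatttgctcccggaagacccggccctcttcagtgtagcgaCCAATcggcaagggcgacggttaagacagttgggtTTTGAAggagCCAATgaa
Top2a (chr11:99024190-99024339, minus strand, GRCm38.p6): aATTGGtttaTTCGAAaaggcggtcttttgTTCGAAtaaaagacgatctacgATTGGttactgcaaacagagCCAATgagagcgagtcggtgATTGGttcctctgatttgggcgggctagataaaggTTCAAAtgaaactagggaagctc
Ube2c (chr2:164769779-164769928, plus strand, GRCm38.p6): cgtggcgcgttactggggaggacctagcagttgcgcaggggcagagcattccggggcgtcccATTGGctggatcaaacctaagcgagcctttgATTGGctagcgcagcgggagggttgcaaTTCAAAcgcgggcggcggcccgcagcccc
Pcna (chr2:132253181-132253330, minus strand, GRCm38.p6): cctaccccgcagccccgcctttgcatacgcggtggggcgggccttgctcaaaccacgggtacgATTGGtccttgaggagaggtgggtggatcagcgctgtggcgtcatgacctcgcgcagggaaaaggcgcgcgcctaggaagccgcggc
Ccnb1 (chr13:100786487-100786636, minus strand, GRCm38.p6): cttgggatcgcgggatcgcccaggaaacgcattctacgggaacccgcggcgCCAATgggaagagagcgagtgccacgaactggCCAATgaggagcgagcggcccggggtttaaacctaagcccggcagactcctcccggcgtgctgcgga

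**Figure D1:**
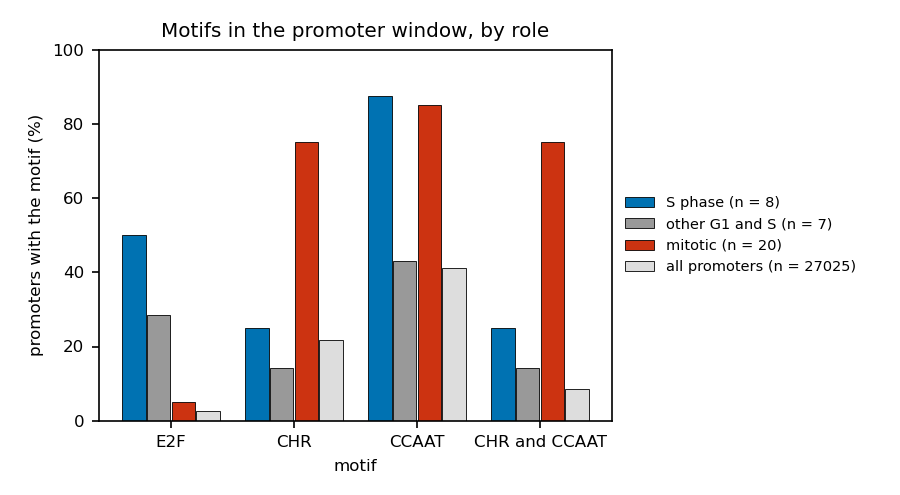
Percent of promoter windows that hold each motif on either strand, for the S phase, other G1 and S and mitotic genes with a matched promoter and for all genes of the RefSeq table. The mitotic bars stand at 75% for CHR and at 5% for E2F, and the S phase bars at 25% and 50%. Matches are letters in a window, not measured binding.

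All 42 genes passed the filter on dim probes, and 40 had a lung signal well above background, by the software's flag, on all 20 arrays. The exceptions were Ttk, well above background on 6 arrays, and Ccne2, on 19 arrays. No spot of these genes was saturated. Every one of the 42 genes had a mean log2 ratio below 0, that is, a lower signal from lung than from the reference. The median over genes was -2.19 for the S phase genes, -2.28 for the other G1 and S genes and -3.15 for the mitotic genes, whereas it was -0.01 over the 20108 genes tested. Between 64% and 78.3% of probes per array lay well above background, and the array pairs correlated at 0.951 to 0.988 over genes. The lowest shares, 64% and 65.6%, were those of medium dose dams 49 and 50, and all other arrays had 68.7% or more. These dams shared a slide and a scan day with no other dam, so for them dose, slide and scan day cannot be told apart. The 8 lung epithelium markers, among them Sftpc and Scgb1a1, all passed the filter.

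None of the 42 genes passed the test at any dose. In the high dose dams 0 of 42 differed from control at an adjusted p under 0.05, where 1.07% of all genes did. At the medium dose 0 of 42 differed, against 0.00497% of all genes, and at the low dose also 0 of 42, against 0.00497%. A trend over the 4 dose steps was called for 0 of 42 (1.45% of all genes), and high against medium dose for 0 of 42 (0.109% of all genes), with 2 of 42 and 1 of 42 at an unadjusted p under 0.05, against 17% and 10.4% of all genes. At an unadjusted p under 0.05, limma gave 2 of 42 at the high dose (16.6% of all genes), 7 of 42 at the medium dose (14.1%) and 1 of 42 at the low dose (7.5%). For no gene were the dams of a dose group separate from the control dams, which held for 3.51%, 3.22% and 1.49% of all genes at the high, medium and low dose. The standard error of a difference ran from 0.06 for Rrm1 to 0.20 for Kif20a on the log2 scale.

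The signs of these differences are given by role, as a description without a test of one role against another. Of the 25 mitotic genes, 20 lay below control at the high dose, 23 at the medium and 23 at the low dose. Their median log2 difference was -0.10, -0.19 and -0.20, where the median over all genes was -0.01, 0.01 and 0.00. Of the 9 S phase genes, 8, 9 and 7 lay below control, with medians of -0.08, -0.12 and -0.07. The 8 other G1 and S genes had medians of 0.01, 0.00 and -0.03, with 4, 4 and 5 below control. Over all genes 53.3%, 47.6% and 50.1% lay below control. The 3 comparisons share the same 5 control dams, and the mitotic medians moved with single dams. Without control dam 15 they were -0.18, -0.29 and -0.29 at the high, medium and low dose. Without control dam 14 they were -0.14 at the medium and -0.12 at the low dose, the values nearest 0 at these doses. Without high dose dam 64 the median at the high dose was -0.01.

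**Figure D2:**
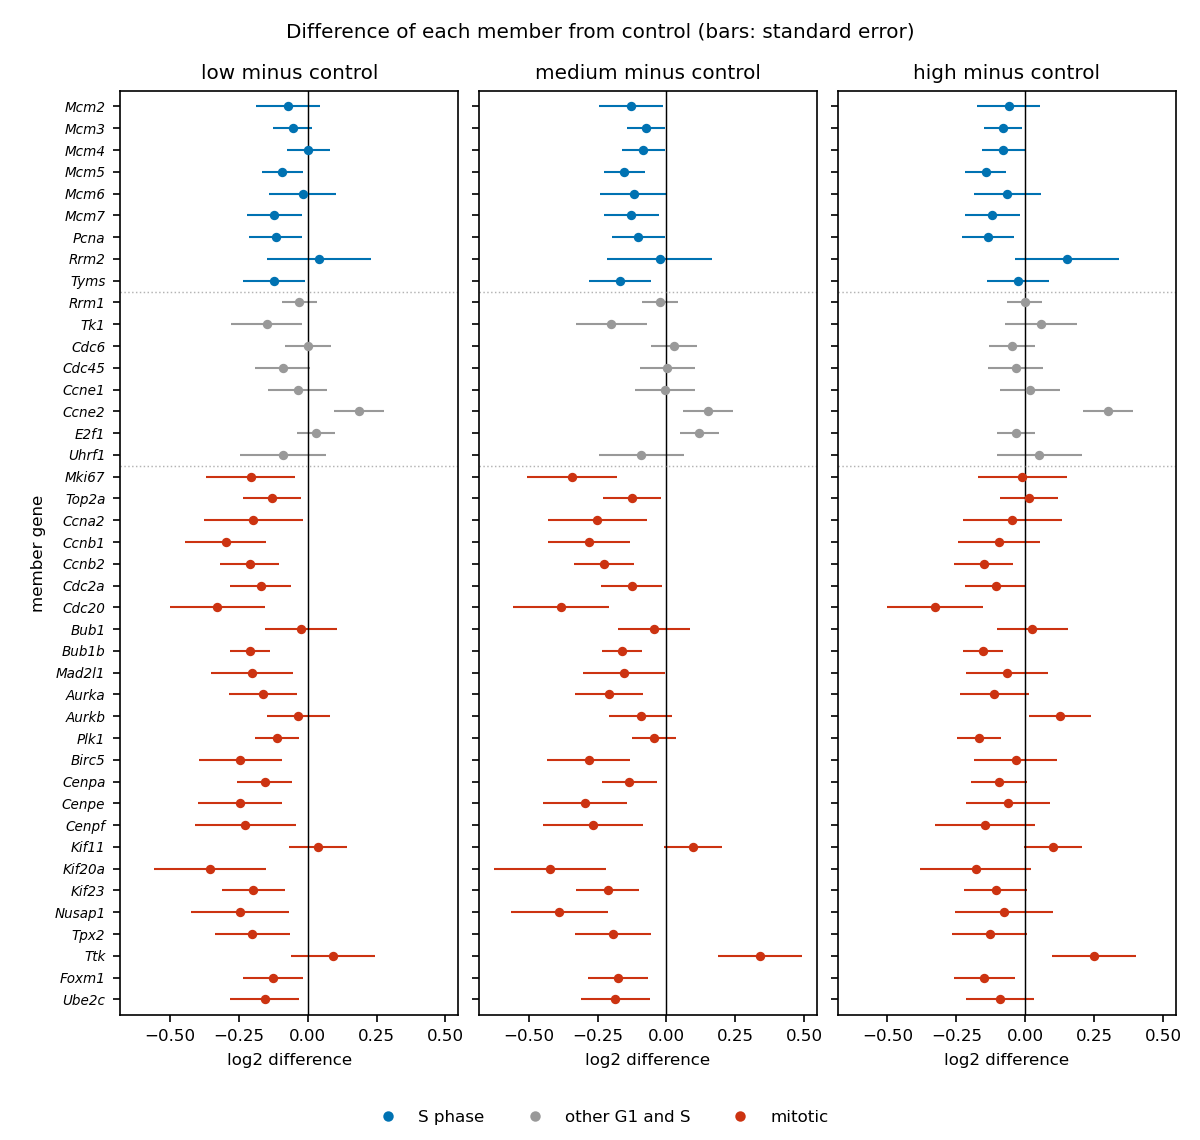
Log2 difference from control of each of the 42 genes at the low, medium and high dose, with standard errors from limma as bars. Mitotic genes (red) mostly lie left of 0 at the low and medium dose, with medians of -0.20 and -0.19. Ccne2, Ttk and Kif11 lie to the right at all 3 doses.

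Among the S phase genes, the values of each dam are given for 5, listed by animal number (control dams 4, 7, 14, 15 and 18; low dose dams 25, 27, 28, 31 and 36; medium dose dams 46, 47, 48, 49 and 50; high dose dams 60, 62, 63, 64 and 65). Mcm2, a subunit of the replicative helicase, had log2 ratios of -2.86, -2.46, -2.30, -2.72 and -2.45 in control dams, -2.91, -2.74, -2.43, -2.68 and -2.38 in low dose dams, -2.84, -2.61, -2.63, -2.75 and -2.61 in medium dose dams and -2.56, -2.70, -2.29, -2.78 and -2.76 in high dose dams. Mcm6, another subunit of that helicase, had log2 ratios of -2.23, -1.95, -1.64, -2.10 and -2.04 in control dams, -2.29, -2.09, -1.77, -2.00 and -1.90 in low dose dams, -2.03, -1.99, -2.17, -2.25 and -2.12 in medium dose dams and -1.99, -2.18, -1.62, -2.26 and -2.24 in high dose dams. In both, control dam 14 and high dose dam 63 were the highest of their groups and all groups overlapped. The differences from control at the high, medium and low dose were -0.06, -0.13 and -0.07 (SE 0.12) for Mcm2 and -0.07, -0.12 and -0.02 (SE 0.12) for Mcm6, with adjusted p from 0.637 to 0.985.

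Pcna, the sliding clamp of DNA polymerase, had log2 ratios of -1.49, -1.42, -1.15, -1.66 and -1.39 in control dams, -1.61, -1.66, -1.41, -1.62 and -1.40 in low dose dams, -1.47, -1.5, -1.62, -1.59 and -1.45 in medium dose dams and -1.43, -1.68, -1.26, -1.78 and -1.64 in high dose dams. Control dam 14 was the highest of the 20 and high dose dam 64 the lowest, and the 4 groups overlapped. The differences were -0.13, -0.10 and -0.12 (SE 0.10) at the high, medium and low dose, with adjusted p of 0.516, 0.652 and 0.821. The Pcna probe is printed 10 times on each array. The SD between its 10 spots had a median of 0.04 over arrays, while the SD between dams of a group was 0.16. Each dam had its own labelling and hybridisation, so the second value also holds the variation between arrays.

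Rrm2, the small subunit of ribonucleotide reductase, had log2 ratios of -3.15, -2.49, -3.20, -3.12 and -3.28 in control dams, -3.23, -2.55, -3.01, -2.94 and -3.30 in low dose dams, -2.75, -2.47, -3.37, -3.48 and -3.30 in medium dose dams and -2.53, -2.94, -3.00, -2.92 and -3.10 in high dose dams. It followed a pattern of its own: control dam 7, low dose dam 27 and medium dose dam 47, which lay on the same slide, were the highest of their groups, and high dose dam 60 was the highest of its group. The differences were 0.15, -0.02 and 0.04 (SE 0.19). Tyms, thymidylate synthase, had log2 ratios of -2.58, -2.42, -2.34, -2.82 and -2.62 in control dams, -2.83, -2.84, -2.43, -2.72 and -2.56 in low dose dams, -2.54, -2.68, -2.79, -2.82 and -2.79 in medium dose dams and -2.37, -2.77, -2.27, -2.82 and -2.67 in high dose dams. Its groups overlapped, with differences of -0.03, -0.17 and -0.12 (SE 0.11) and adjusted p of 0.941, 0.517 and 0.849. The other 4 S phase genes, Mcm3, Mcm4, Mcm5 and Mcm7, differed from control by -0.15 to 0.00 over the 3 doses. The lowest adjusted p among the S phase genes at the high dose was 0.340, for Mcm5, with a difference of -0.14 (SE 0.07).

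Of the other G1 and S genes, Ccne2, a cyclin E that activates Cdk2 at the start of S phase, had the smallest p at the high dose. Its log2 ratios were -1.66, -1.49, -1.15, -1.59 and -1.37 in control dams, -1.45, -1.29, -1.26, -1.26 and -1.07 in low dose dams, -1.29, -1.28, -1.32, -1.49 and -1.12 in medium dose dams and -0.99, -1.17, -1.08, -1.26 and -1.27 in high dose dams. The high dose dams lay at -1.27 or higher and 4 of the 5 control dams at -1.37 or lower, while control dam 14 lay among the high dose dams. The difference was 0.30 (SE 0.09, 1.23-fold) at the high dose, with an unadjusted p of 0.00379 and an adjusted p of 0.107, and 0.15 and 0.19 at the medium and low dose. The high dose dam was above the control dam on all 5 slides that hold both, by 0.07 to 0.67, but the share of all genes with such pairs was not counted. Over the alternative settings that kept all dams the adjusted p ran from 0.0568 to 0.999. Without control dam 14 the adjusted p at the high dose was 0.0432. The probe was dim, with a lung signal of 100 to 142 intensity units, and the deposited ratio has no background subtracted. With the background-subtracted lung signal alone the difference was -0.05 (adjusted p = 0.999), and with the software's ratio 0.05.

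Ccne1, the other cyclin E, had log2 ratios of -2.34, -1.98, -1.88, -2.33 and -2.32 in control dams, -2.35, -1.92, -2.21, -2.34 and -2.23 in low dose dams, -2.11, -2.05, -2.42, -2.25 and -2.06 in medium dose dams and -2.11, -2.17, -1.89, -2.35 and -2.23 in high dose dams. Cdc6, which loads the MCM helicase at origins, had log2 ratios of -2.19, -2.02, -2.04, -2.29 and -2.20 in control dams, -2.22, -2.25, -2.01, -2.30 and -1.96 in low dose dams, -2.12, -2.04, -2.17, -2.19 and -2.09 in medium dose dams and -2.06, -2.39, -2.05, -2.40 and -2.08 in high dose dams. The groups of both overlapped widely. Ccne1 differed from control by 0.02, -0.01 and -0.04 (SE 0.11) at the high, medium and low dose, and Cdc6 by -0.05, 0.03 and 0.00 (SE 0.08). The remaining genes of this role, Rrm1, Tk1, Cdc45, E2f1 and Uhrf1, differed by -0.20 (Tk1, medium dose) to 0.12 (E2f1, medium dose).

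The mitotic genes with the values of each dam begin with the general marks of cycling cells. Mki67, the Ki-67 protein of dividing cells, had log2 ratios of -3.19, -2.96, -2.75, -3.61 and -3.04 in control dams, -3.45, -3.40, -3.05, -3.43 and -3.26 in low dose dams, -3.08, -3.25, -3.51, -3.60 and -3.83 in medium dose dams and -2.73, -3.39, -2.94, -3.46 and -3.09 in high dose dams. Top2a, the topoisomerase that untangles replicated chromosomes, had log2 ratios of -3.41, -3.30, -3.19, -3.61 and -3.21 in control dams, -3.59, -3.56, -3.22, -3.53 and -3.45 in low dose dams, -3.41, -3.37, -3.35, -3.55 and -3.66 in medium dose dams and -3.15, -3.46, -3.09, -3.66 and -3.30 in high dose dams. For both genes high dose dams 60 and 63 and control dam 14 were the 3 highest, control dam 15 and medium dose dam 50 were among the 3 lowest, and the groups overlapped. Mki67 differed from control by -0.01, -0.34 and -0.21 (SE 0.16) at the high, medium and low dose, and Top2a by 0.01, -0.13 and -0.13 (SE 0.11). The adjusted p of Mki67 were 0.984, 0.349 and 0.812.

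Ccnb1, cyclin B1, had log2 ratios of -3.65, -3.71, -3.69, -4.47 and -3.92 in control dams, -4.34, -4.10, -3.93, -4.33 and -4.24 in low dose dams, -3.96, -4.10, -4.11, -4.24 and -4.44 in medium dose dams and -3.86, -4.10, -3.69, -4.39 and -3.88 in high dose dams. Cdc2a, the kinase that cyclin B activates, had log2 ratios of -3.36, -3.16, -3.00, -3.58 and -3.33 in control dams, -3.50, -3.32, -3.42, -3.70 and -3.36 in low dose dams, -3.35, -3.39, -3.58, -3.30 and -3.44 in medium dose dams and -3.22, -3.63, -3.11, -3.65 and -3.36 in high dose dams. Within the control group both genes were lowest in dam 15, and the groups overlapped. Ccnb1 differed by -0.10, -0.28 and -0.30 (SE 0.15) and Cdc2a by -0.11, -0.13 and -0.17 (SE 0.11) at the high, medium and low dose. The adjusted p at the low dose were 0.679 and 0.764.

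Cdc20, which activates the anaphase-promoting complex, had log2 ratios of -2.46, -2.31, -2.35, -3.16 and -2.51 in control dams, -3.13, -2.74, -2.65, -3.12 and -2.80 in low dose dams, -2.68, -2.83, -2.94, -2.92 and -3.34 in medium dose dams and -2.51, -3.31, -2.77, -3.21 and -2.64 in high dose dams. In 4 of 5 control dams the ratio was -2.51 or higher, a level that 1 of the 15 exposed dams reached, and control dam 15 lay at -3.16 among the lowest. The differences were -0.33, -0.38 and -0.33 (SE 0.17) at the high, medium and low dose, with adjusted p of 0.352, 0.335 and 0.703. The high dose dam was below the control dam on all 5 slides that hold both, with differences of -1.003 to -0.05. The share of all genes with such pairs was not counted.

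Bub1b, the BubR1 protein of the spindle checkpoint, had log2 ratios of -2.62, -2.64, -2.72, -2.98 and -2.64 in control dams, -2.96, -2.98, -2.81, -2.99 and -2.90 in low dose dams, -2.86, -2.82, -2.87, -2.90 and -2.96 in medium dose dams and -2.76, -2.85, -2.79, -3.13 and -2.82 in high dose dams. It varied least among dams of the mitotic genes, and control dam 15 was the one control dam inside the range of the low dose dams. The differences were -0.15, -0.16 and -0.21 (SE 0.07), with unadjusted p of 0.0494, 0.0373 and 0.00992 and adjusted p of 0.300, 0.332 and 0.595. The exposed dam lay below the control dam of the same slide in 5 of 5 pairs at the high dose, 3 of 3 at the medium and 5 of 5 at the low dose. These pairs share the same control dams. At the high dose Mcm5, Cdc20 and Plk1 also lay below control in 5 of 5 pairs, and Ccne2 and Ttk above in all. How many of all genes did so was not counted. Ttk, the Mps1 kinase of the same checkpoint, had log2 ratios of -1.81, -1.97, -1.77, -2.14 and -1.57 in control dams, -1.83, -1.87, -1.68, -1.94 and -1.49 in low dose dams, -1.66, -1.83, -1.67, -1.56 and -0.84 in medium dose dams and -1.55, -1.48, -1.59, -1.95 and -1.43 in high dose dams. Medium dose dam 50 stood far above all others. The lung signal of Ttk was well above background on 2 control, 0 low, 1 medium and 3 high dose arrays, so Ttk passed the filter through the high dose group alone, and its high dose test is not independent of that. The differences were 0.25, 0.34 and 0.09 (SE 0.15), with adjusted p of 0.432, 0.333 and 0.925. Its lung signal had a median of 99.8 intensity units, and without the slide that holds dams 49 and 50 the medium difference was 0.13.

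Plk1, the Polo kinase, had log2 ratios of -1.58, -1.67, -1.70, -1.96 and -1.79 in control dams, -1.93, -1.76, -1.69, -2.00 and -1.89 in low dose dams, -1.77, -1.73, -1.85, -1.70 and -1.88 in medium dose dams and -1.72, -2.12, -1.85, -1.99 and -1.86 in high dose dams. Aurkb, the Aurora kinase of the chromosomal passenger complex, had log2 ratios of -3.16, -3.01, -2.82, -3.41 and -2.98 in control dams, -3.26, -3.18, -3.03, -3.07 and -3.01 in low dose dams, -2.90, -3.24, -3.44, -3.22 and -3.05 in medium dose dams and -2.65, -3.00, -2.88, -3.23 and -2.99 in high dose dams. Foxm1, the transcription factor of the late cell cycle genes, had log2 ratios of -2.54, -2.20, -2.23, -2.61 and -2.49 in control dams, -2.65, -2.40, -2.36, -2.66 and -2.62 in low dose dams, -2.48, -2.49, -2.57, -2.70 and -2.70 in medium dose dams and -2.25, -2.70, -2.37, -2.89 and -2.60 in high dose dams. High dose dam 62 was lowest for Plk1, medium dose dam 48 for Aurkb and high dose dam 64 for Foxm1, and the groups overlapped in all 3. Plk1 differed by -0.17, -0.05 and -0.11 (SE 0.08), Aurkb by 0.13, -0.09 and -0.03 (SE 0.11) and Foxm1 by -0.15, -0.18 and -0.13 (SE 0.11) at the high, medium and low dose. The lowest adjusted p among these was 0.303, for Plk1 at the high dose. The Aurkb probe was dim, with a lung signal of 120.5 to 177 intensity units, and with the background-subtracted lung signal alone its high dose difference was -0.29.

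The other 15 mitotic genes ranged from -0.42 to 0.10 over the 3 doses. The lowest value was that of the kinesin Kif20a at the medium dose (-0.42, SE 0.20, adjusted p = 0.353), followed by the spindle protein Nusap1 at the same dose (-0.39, SE 0.18, adjusted p = 0.339). The highest was that of Kif11, the motor that pushes spindle poles apart, at the high dose (0.10, SE 0.11). Besides Kif20a and Nusap1, the mitotic genes at an unadjusted p under 0.05 at the medium dose were Mki67, Ccnb2, Cdc20 and Bub1b, all lower, and Ttk, higher.

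No difference between the high and the medium dose passed the test for any of the 42 genes. At the high dose 23 of 25 mitotic genes lay above the medium dose, with a median difference of 0.09. Over all genes 55.9% lay below the medium dose, with a median of -0.01. The difference for Mki67 was 0.33 (SE 0.16, unadjusted p = 0.0538). Without high dose dam 60 the mitotic median was 0.01, and without the 2 arrays of slide 6, both of medium dose dams, it was 0.06.

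The larger spread lay between dams of one group. To follow it, each value was set against the median of that gene over the 20 dams. In control dam 15 and high dose dam 64, 0 of 25 mitotic genes lay above their median. In control dam 18 and high dose dam 60, 25 of 25 did. Over all 20108 genes the share above the median lay between 44.8% and 54.5% in every dam. The array medians of the deposited values were all near 0, which holds this share to a narrow range beforehand. Over 24 genes that hold the cycle back, a list of similar size, the share ran from 29.2% to 75%. For the mitotic genes the share was at most 25% in 8 dams and at least 75% in 9 dams, so they were mostly high or mostly low in the same animal. This was not particular to them. The share was at most 25% in 5 dams and at least 75% in 7 dams for the 9 S phase genes. For the 8 other G1 and S genes these counts were 7 and 8 dams. The mean deviation of the 25 mitotic genes ran from -0.29 in control dam 15 to 0.33 in high dose dam 60. Over the 24 genes that hold the cycle back it ran from -0.07 to 0.09. Over all genes, where it is likewise held near 0, it ran from -0.02 to 0.02.

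**Figure D3:**
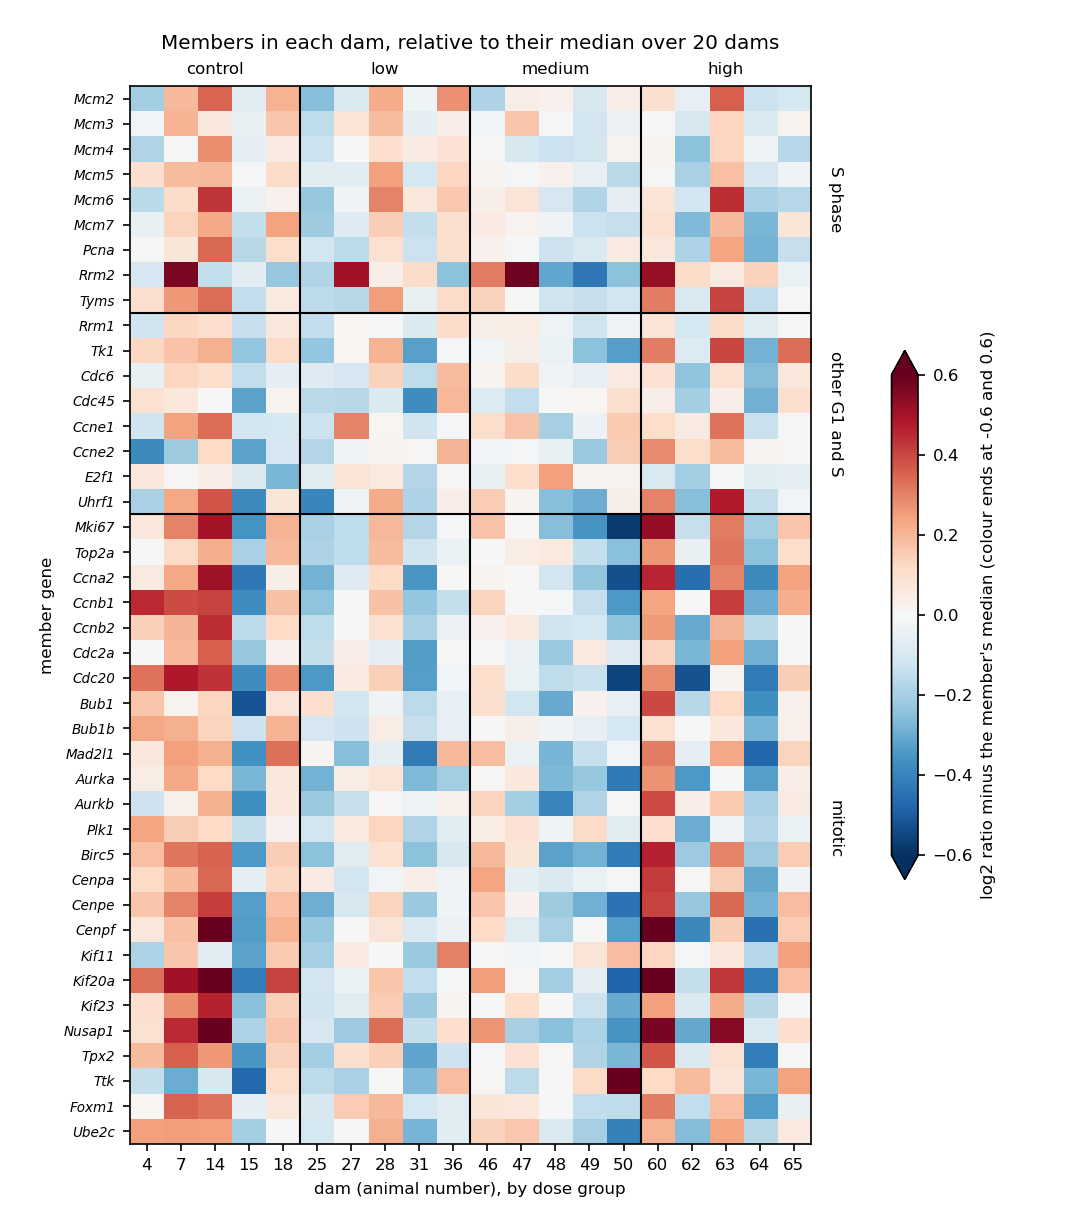
Each cell shows the log2 ratio of 1 gene (row) in 1 dam (column) minus the median of that gene over the 20 dams, with dams grouped by dose and genes by role. Whole columns of mitotic genes are blue in control dam 15 and high dose dam 64 (0 of 25 above the median) and red in control dam 18 and high dose dam 60 (25 of 25).

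Within each group the mitotic mean covered much of that range. In control dams 4, 7, 14, 15 and 18 it was 0.11, 0.23, 0.33, -0.29 and 0.15. In the low dose dams it was -0.16, -0.05, 0.10, -0.21 and -0.01, and in the medium dose dams 0.09, -0.0043, -0.14, -0.11 and -0.22. In the high dose dams it was 0.33, -0.17, 0.21, -0.285 and 0.09. The group means were 0.11 ± 0.24 (SD, n = 5) for control, -0.07 ± 0.12 for low, -0.08 ± 0.12 for medium and 0.04 ± 0.26 for high dose, so the groups overlapped and the control and high dose dams had the larger SDs. The median SD between dams of a group was 0.22 for the mitotic genes, 0.16 for the S phase and other G1 and S genes and 0.12 over all genes. Kif20a, Cenpf, Ccna2 and Nusap1 had SDs of 0.35, 0.32, 0.31 and 0.31, and Bub1b of 0.12.

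**Figure D4:**
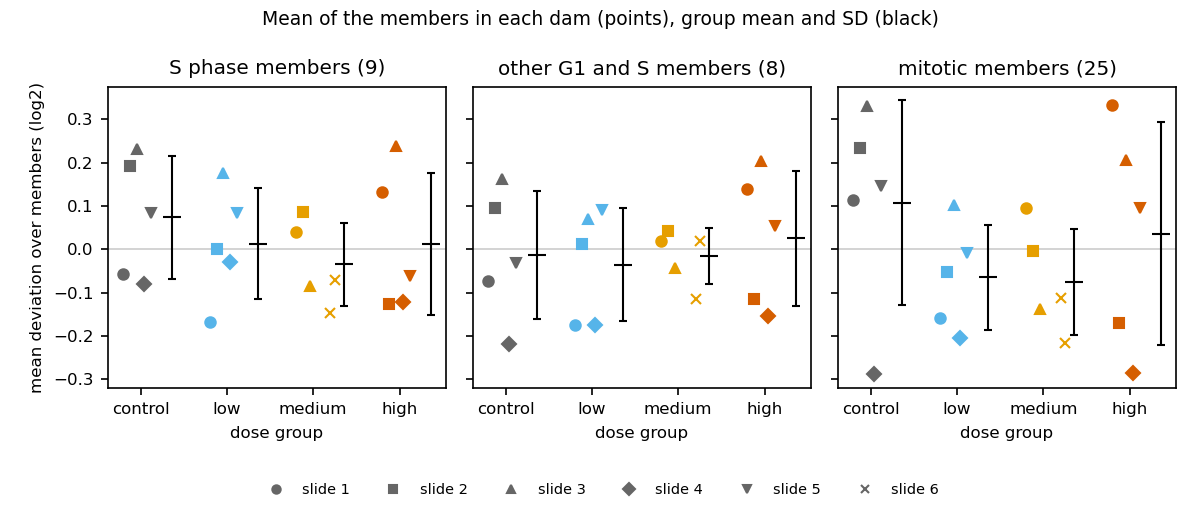
Mean deviation from the 20-dam median over the S phase, other G1 and S and mitotic genes, with 1 point per dam, the marker giving its slide, and the group mean and SD (n = 5) in black. The mitotic points span -0.29 to 0.33 and overlap between all 4 groups.

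The S phase mean per dam lay on the same side of 0 as the mitotic mean in 15 of 20 dams, and the mean of the other G1 and S genes did so in 14 of 20. The mean over all genes did so in 12 of 20, so these counts are given as a description. The S phase mean ran from -0.17 in low dose dam 25 to 0.24 in high dose dam 63, a range of 0.405 against 0.62 for the mitotic genes. In control dam 4 the S phase mean was -0.06 and the mitotic mean 0.11, and in high dose dam 65 they were -0.06 and 0.09. In medium dose dam 47 the S phase mean was 0.09 and the mitotic mean -0.0043. The S phase mean exceeded the mitotic mean by 0.21 in control dam 15 and differed from it by -0.20 in high dose dam 60, the 2 extremes of the difference. Group means of the S phase genes were 0.07 ± 0.14 (SD, n = 5) for control, 0.01 ± 0.13 for low, -0.04 ± 0.10 for medium and 0.01 ± 0.16 for high dose.

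The arrays lay on 6 slides. Slides 1 to 5 each held a control, a low and a high dose dam, and slides 1 to 3 a medium dose dam too. On these slides each group had a fixed array position, so position and group cannot be told apart there. On slide 4, which held control dam 15, low dose dam 31 and high dose dam 64, the mitotic mean was -0.29 to -0.21 in all 3 dams. On slide 6, which held medium dose dams 49 and 50 alone, it was -0.22 and -0.11. On slides 1, 2 and 3 it ran from -0.17 to 0.33, and on slide 5 from -0.01 to 0.15. Within slides the high dose dam minus the control dam was below 0 on 3 of 5 slides (-0.40 to 0.22). At the medium dose it was below 0 on 3 of 3 slides (-0.47 to -0.02) and at the low dose on 4 of 5 (-0.29 to 0.08). With slide as a block in the limma fit, 0 of 42 genes passed at any dose, where 629 of all 20108 genes passed at the high dose and 2 at the medium dose. The mitotic medians were then -0.10, -0.21 and -0.20. Without the slide 4 arrays the mitotic medians were -0.12, -0.29 and -0.25, and without the slide 6 arrays the medium dose median was -0.12. The part of the slide in the shared variation was not tested apart from these values.

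The channels could be read apart. The mitotic mean from the lung Cy5 signal alone lay on the same side of 0 as the ratio in 20 of 20 dams and ran from -0.32 to 0.53. The ratio contains this Cy5 signal, so the count is not independent of it, and Cy5 alone also holds the variation between arrays. From the reference Cy3 signal alone, where all arrays carried the same RNA, it ran from -0.07 to 0.11 and lay on the same side in 9 of 20 dams. The Cy3 mean was below 0 in every dam of slides 1 and 2, at -0.07 to -0.01. In every dam of slides 3 to 6 it was above 0, at 0.01 to 0.11, with 0.04 to 0.05 on slide 4. Its highest values, 0.08 and 0.11, were those of medium dose dams 49 and 50 on slide 6. The reference signal thus differed by slide, and the ratio contains it. Its part in the mitotic values was not tested. With background correction and loess, applied to the same spots, the mitotic means ran from -0.29 to 0.36 and kept their side in 20 of 20 dams.

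**Figure D5:**
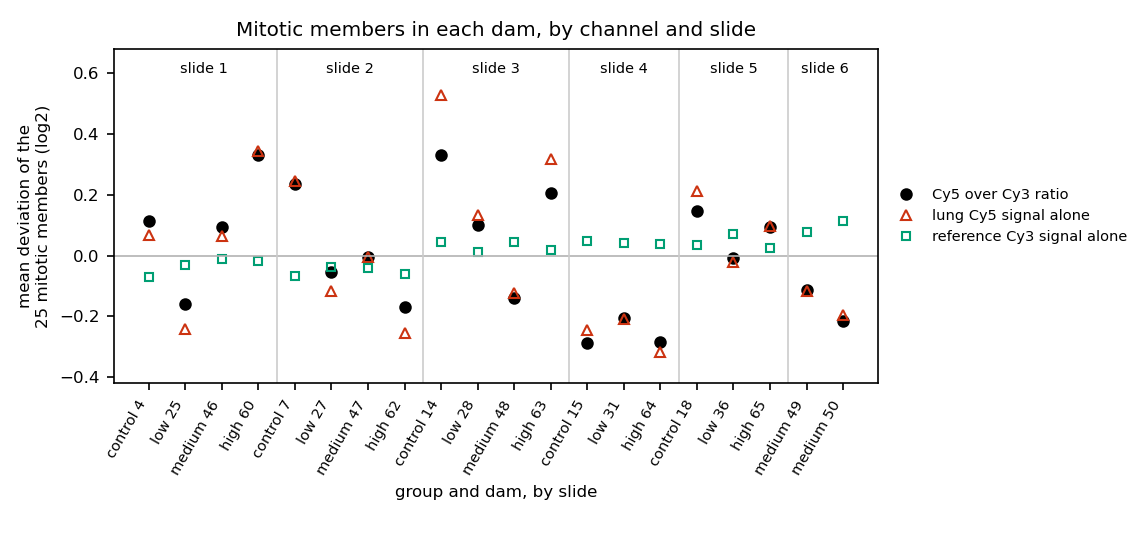
Mean deviation of the 25 mitotic genes in each dam, ordered by slide, from the Cy5 over Cy3 ratio (black), the lung Cy5 signal alone (red) and the reference Cy3 signal alone (green). The black and red points lie on the same side of 0 in 20 of 20 dams, and the green points stay between -0.07 and 0.11.

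Markers of cells that could bring dividing or blood cells into the sample were set beside the mitotic genes. Their mean lay on the same side of 0 as the mitotic mean in 15 of 20 dams for the 6 measured neutrophil precursor markers, in 13 for the 8 T cell markers, in 12 for the 8 B and plasma cell markers and the 5 measured thymocyte markers, in 11 for the macrophage, germinal centre and heart muscle markers, in 9 for lung epithelium and in 8 for erythroid markers, against 12 for the mean over all genes. The neutrophil precursor mean ran from -0.02 to 0.77 in control dams, -0.14 to 0.21 in low, -0.41 to 0.37 in medium and -0.22 to 0.01 in high dose dams. Ela2, the neutrophil elastase gene, and the lymphocyte recombinase genes Rag1 and Rag2 were well above background on no array, as was the germinal centre marker Mybl1. The B and plasma cell mean ran from -0.21 to 0.28 in control dams and from -0.20 to 1.01 in high dose dams, and 2 of its 8 markers, Igj and Tnfrsf17, rose at the high dose (1.78 and 0.82, adjusted p = 0.0212 and 0.0222). At that dose 6 of the 8 lay above control, with a median of 0.19, while 8 and 7 of the 8 lay below control at the medium and low dose. Over all genes 1.07% were called at the high dose, and 53.3%, 47.6% and 50.1% lay below control at the high, medium and low dose. Of the 6 measured neutrophil precursor markers, 1 fell at the high dose, the granule gene Camp (-1.33, adjusted p = 0.0340), with 4 of 6 below control and a median of -0.21. Of the 8 macrophage markers, 1 fell, Siglecf, a surface lectin of alveolar macrophages and eosinophils (-0.93, adjusted p = 0.00394), while 5 of 8 lay above control with a median of 0.06. The heart muscle mean ran from -1.90 to 0.95 over the dams. The part of these cells in the mitotic values was not tested.

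Other genes of the cell cycle were counted from lists kept apart from the 42. Over all genes 1.07%, 0.00497% and 0.00497% were called at the high, medium and low dose, and 53.3%, 47.6% and 50.1% lay below control. At these rates a list of this size would mostly hold no called gene. Of 40 further replication genes, 0 rose and 0 fell at any dose, with 29, 32 and 32 below control at the high, medium and low dose and medians of -0.08, -0.08 and -0.09. Pold1, the catalytic subunit of DNA polymerase delta, and Gins4, a subunit of the replicative helicase complex, had the smallest p at the high dose (-0.19 ± 0.07 SE and -0.14 ± 0.06, adjusted p = 0.208 and 0.234). Of 55 further mitotic genes measured, 0 rose and 0 fell, with 32, 43 and 45 below control and medians of -0.02, -0.11 and -0.10. Smc2, a condensin subunit, and Stmn1, a protein that destabilises microtubules, had the smallest p (0.29 ± 0.09 and -0.33 ± 0.11, adjusted p = 0.106 and 0.132). These further mitotic genes lay on the same side as the 25 in 19 of 20 dams and ranged from -0.23 to 0.29, and the further replication genes in 16 of 20, where the mean over all genes did so in 12. With slide as a block, 3 of the 55 further mitotic genes passed at the high dose and for the trend, where 629 and 594 of all 20108 genes did. All 3 lay above control: Sgol2, a protector of centromere cohesion (0.38, adjusted p = 0.0411 at the high dose), Hmmr, a spindle protein (0.28, adjusted p = 0.0368), and Dlg7, a microtubule-binding protein of the spindle (0.28, adjusted p = 0.0288). These were named after their values were seen, and their probes were well above background on 20, 14 and 19 of 20 arrays. Without the filter on dim probes, Gtse1, a G2 and S phase protein that binds microtubules, passed at the high dose (0.31, adjusted p = 0.0324). Smc2 passed at the high dose when control dam 14 was left out (0.38, adjusted p = 0.0185), and Stmn1 when high dose dam 60 was left out (-0.43, adjusted p = 0.0245).

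A trend over the dose steps was called for 1.45% of all genes. Of 18 G1 cyclins, kinases and their partners, 1 rose over the dose steps, Cdk2, the partner of cyclin E. Its log2 ratios were -0.84, -0.92, -0.84, -0.98 and -0.69 in control dams, -0.68, -0.84, -0.84, -0.90 and -0.80 in low, -0.64, -0.83, -0.73, -0.57 and -0.62 in medium and -0.63, -0.45, -0.66, -0.75 and -0.54 in high dose dams. The medium and high dose dams were mostly above the control dams, with overlap through control dam 18. The slope was 0.09 per dose step (SE 0.02, adjusted p = 0.0437), and high against control gave 0.25 (SE 0.07, adjusted p = 0.0740). The Cdk2 probe was well above background on 17 of 20 arrays, and the call depended on how background was handled. Without background correction and with loess the adjusted p was 0.0897, with the background corrections 0.161 and 0.566, and with the software ratio 0.933. With the background-subtracted lung signal alone the slope was -0.04 (adjusted p = 1.00). Without the slide 4 or the slide 6 arrays the adjusted p was 0.109 and 0.0672. With slide as a block it was 0.0288, and the high dose difference then also passed (0.25, adjusted p = 0.0293), as it did with slide as a random block, with scan date as a block and without high dose dam 64 (adjusted p = 0.0277, 0.0374 and 0.0468). Cdk2 no longer passed for the slope when any 1 of control dams 4, 7, 14 and 15, low dose dams 28, 31 and 36, medium dose dams 46 and 50 or high dose dams 60, 62, 63 and 65 was left out. Chek2, a DNA damage checkpoint kinase, had the next smallest p (0.21 ± 0.08, adjusted p = 0.171). Of the 18 genes, 14, 16 and 14 lay above control at the high, medium and low dose, with medians of 0.08, 0.09 and 0.05. Over all genes 53.3%, 47.6% and 50.1% lay below control, and 1.07%, 0.00497% and 0.00497% were called. Of 24 genes that hold the cycle back, such as CDK inhibitors and pocket proteins, 0 rose and 0 fell, with medians of -0.03, 0.00 and 0.00. Btg1, an antiproliferative factor, and 1810054G18Rik, an older name of the MuvB subunit gene Lin37, had the smallest p (0.27 ± 0.10 and -0.12 ± 0.06, adjusted p = 0.169 and 0.296).

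Ccne2, Ttk and Cdk2, which lay above control, were among the genes with dim probes, and across the array such genes more often lay above control at the high dose. Kif11, well above background on all 20 arrays, also lay above control, by 0.10, 0.10 and 0.04 at the high, medium and low dose. Of the 2989 genes tested whose lung signal was well above background on fewer than 20 arrays, 66% lay above control at the high dose, with a median of 0.05. Of the 17119 genes well above background on all 20 arrays, 43.3% lay above control, with a median of -0.02. Among the 15 additional probes for the 42 genes, 4 were not well above background on all arrays, and all 4 lay above control at the high dose, by 0.34 for Top2a, 0.18 for Ccne1, 0.15 for Cenpe and 0.13 for Tyms. For Top2a, Tyms and Cenpe the brighter probe used here gave 0.01, -0.03 and -0.06, so the probes of these genes disagreed. Of the 11 additional probes that were well above background on all arrays, 7 had the same sign at the high dose as the probe used and 11 at the medium dose. The 4 with the other sign at the high dose were probes of Cdc6 (0.13), E2f1 (0.01), Uhrf1 (-0.02) and Ccnb1 (0.07), so disagreement at that dose was not limited to dim probes. The part of background in these differences was not tested.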

How the data were processed

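Lung RNA of 20 dams was hybridised with a common reference to Agilent mouse arrays. The scanner files hold Cy5 and Cy3 intensity and a log10 ratio, extracted with Feature Extraction 9.5.1.1 (18 arrays) and 10.1.1.1 (2 arrays) per the file headers, although the labels name 9.5.3.1. The log2 ratios analysed are the authors' deposited values, with a normalization not given in the sources used. Their column medians were -0.05 to -0.0315, and they followed the raw log2 ratio of the scanner intensities, without background subtraction (r = 0.962 to 0.993). Outlier spots (0.354%) were left out, and repeat spots of a probe were averaged. Probes had to be well above background in Cy5 on at least 3 of 5 arrays of a group and to hold a value on at least 16 arrays. The brightest probe stood for each gene, and 20108 genes were tested with limma 3.58.1 in R 4.3.3 over all 20 arrays, with Benjamini-Hochberg adjustment and a threshold of 0.05. The number of arrays limits the precision. The test was checked on simulated data. Genes with values per dam were 14 members chosen for their roles and the 3 smallest p-values of each dose comparison. From each other list, called genes and the 2 smallest p-values at the high dose were named. The members and lists were chosen with earlier results of these data known. Alternatives changed the background correction, ratio, normalization, filter, probe rule, blocks and arrays.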

Additional observations from a re-analysis of the deposited data

Results flagged for a closer look

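In 84 groups of 5 dams (18 genes and 3 role means in 4 groups), 5 had a dam whose gap to the nearest of the others was above 0.71 of the range of the group. Chance gives about 1 in 20 such groups. In the control group, Cdc20 was -3.16 in dam 15, with the nearest dam at -2.51. Bub1b was -2.98 in the same dam, with the nearest at -2.72. Bub1b was also low in high dose dam 64, at -3.13 against -2.85 in the nearest dam. Dams 15 and 64 lay on slide 4 and were the dams with 0 of 25 mitotic genes above the median. Rrm2 was -2.49 in control dam 7, with the nearest control dam at -3.12. Ttk was -0.838 in medium dose dam 50, with the nearest dam of its group at -1.56.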

How the results depend on the processing

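No paired analysis was possible because the animal numbers are not shared between groups, but dams of one slide were compared through the slide block and within slides. None of the 42 genes was called under any alternative that kept all dams, and at most 1 when a dam was left out (0 to 1 at the high dose). Over all settings, 1910 values of single genes kept their direction and side of the threshold, while 81 changed sign and 1 newly passed. Of the summary values and counts, 907 stayed near the main value and 98 moved. Counts were judged by a fold limit. Role medians and the range of the mitotic dam means were judged by the SD of the dam means (0.13 to 0.195). A role median near 0 could therefore change sign without being counted as moved. For settings that moved a value the cause was not tested. Whole-array calls at the high dose (215) were 10 with Cy5 alone, 9 with the software ratio, 14 with normexp and 71 with normexp fitted without the lowest spot, 349 with the mean over probes, 399 with no filter, 132 with the strict filter, 21 with only the groups compared, 432, 629 and 708 with scan date, slide and random slide blocks, and 58 without slide 4. For the trend (292) they were 13, 3, 15 and 57 with those 4 values, 180 with scaling, 504 with no filter, 168 with the strict filter, 594 and 798 with slide blocks and 45 without slide 4. For the medium dose (1) they were 0, 0 and 0 with Cy5, software ratio and normexp, 5 without background correction, 3 with no filter and 2 with the slide block, and for the low dose (1) they were 0 with Cy5, software ratio and both normexp fits. High against medium (22) gave 6 with normexp, 8 with the software ratio, 9 with the strict filter, 0 with only the groups compared, 1 and 5 with scan date and slide blocks, 36 without slide 4 and 0 without slide 6. Other cell cycle genes called at the high dose (0) were 1 with no filter, 1 with scan date, 4 with the slide block and 1 with the random block. For the trend (1) they were 2 with no filter, 4 with the slide block, and 0 with Cy5, software ratio, both normexp fits, no background correction, the strict filter and without slide 4 or 6. The range of the mitotic dam means (0.62) was 0.843 with Cy5 alone and the software ratio.

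Sign changes were of differences that did not pass the test. With Cy5 alone, the high dose difference was 0.017 for Mki67, -0.19 for Top2a, -0.29 for Aurkb and -0.052 for Ccne2, the medium dose difference -0.19 for Cdc6 and -0.084 for Ccne2, and the low dose difference -0.0027 for Rrm2, -0.11 for Cdc6 and -0.46 for Ttk. With the software ratio they were 0.00074 for Mki67, -0.12 for Top2a and -0.24 for Aurkb (high), -0.12 for Cdc6 and -0.10 for Ccne2 (medium), and -0.0096 for Rrm2, -0.093 for Cdc6 and -0.46 for Ttk (low). With scaling they were -0.022 for Top2a and -0.0030 for Ccne1 (high) and -0.017 and -0.018 for Cdc6 (medium and low). With the mean over probes they were 0.024 for Tyms and 0.042 for Cdc6 (high) and 0.10 for Ccne1 (medium). Without background correction they were 0.0028 for Ccne1 (medium) and -0.0013 for Cdc6 (low). With normexp they were -0.0066 for Top2a (high), -0.046 for Cdc6 (medium), 0.22 for Aurkb and 0.0024 for Ccne1 (low), and without the lowest spot -0.0074 for Top2a (high), -0.043 and -0.023 for Cdc6 (medium and low). Rrm2 at the medium dose was 0.0745 with scan date, 0.10 with the slide block and 0.19 without slide 6, and Cdc6 was -0.010 without slide 4.

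Leaving out 1 dam gave 81 (high dose dam 62) to 253 calls at the high dose, 1 to 9 at the medium dose, 91 to 348 for the trend and 4 to 107 for high against medium, and 0 to 1 other cell cycle genes for the high dose and the trend. The high dose difference then ran from -0.13 to 0.079 for Mki67, -0.053 to 0.094 for Top2a, -0.24 to 0.0066 for Ccnb1, -0.14 to 0.0035 for Mcm2, -0.17 to 0.024 for Mcm6, -0.10 to 0.035 for Tyms, -0.046 to 0.090 for Ccne1, -0.084 to 0.0040 for Cdc6 and 0.25 to 0.37 for Ccne2. The medium dose difference ran from -0.17 to 0.12 for Rrm2, -0.048 to 0.065 for Ccne1 and -0.010 to 0.060 for Cdc6. The low dose difference ran from -0.12 to 0.028 for Aurkb, -0.079 to 0.070 for Mcm6, -0.074 to 0.18 for Rrm2, -0.11 to 0.035 for Ccne1 and -0.045 to 0.040 for Cdc6.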

Other observations

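The dam means of the G1 cyclins, kinases and partners, a list that also holds the checkpoint kinase Chek2, ranged over 0.293. The range was 0.62 for the 25 mitotic genes and 0.52 for the 55 further mitotic genes. The genes that hold the cycle back ranged over 0.162. The mean of the brakes lay on the same side as the mitotic mean in 16 of 20 dams and that of the G1 genes in 13 of 20.

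The 8 heart muscle markers had a median of -1.08 at the medium dose and of 0.06 at the high dose, and none passed the limma test at either dose (3 of 8 and 0 of 8 at an unadjusted p under 0.05). The 8 lung epithelium markers had medians of 0.14, 0.30 and 0.21 at the high, medium and low dose, and 7 of 8 lay above control at each dose. Over all genes 53.3%, 47.6% and 50.1% lay below control at these doses. None of the 8 lung epithelium markers passed the test, and 0 of 8 had an unadjusted p under 0.05 at any dose.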
